A study of Danio rerio with 12 samples.

Results

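The 10 bone and ossicle genes bglap, sp7, spp1, sparc, ifitm5, runx2a, runx2b, entpd5a, phex and panx3 were followed in the adult zebrafish eye. They were taken by symbol from a table of 37055 genes, in which all 10 were found, and 7 of them had enough reads to be tested with the other genes. Polyadenylated RNA was sequenced from 12 eyeball samples at 3 months, 6 wild-type and 6 homozygous for a frameshift in lrpap1. The study speaks of pairs, and each sample is taken here as the pair of eyeballs of 1 fish. The mutation is carried in the germline of a stable CRISPR-Cas9 line, so every cell of the fish had it, and no other allele or agent is named for either genotype. lrpap1 encodes a chaperone of the LDL receptor family, and the study used the line as a model of myopia, in which the wall of the eye is remodelled. The labels give neither the sex of the fish nor how much tissue was left on the eyeball.

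The sclera of a teleost eye holds a cup of cartilage and, towards the front, thin plates of bone called scleral ossicles. Osteoblasts, the cells that build bone, are specified by the transcription factors Runx2 and then Sp7, lay down a matrix of type I collagen, and mineralise it with the help of acidic matrix proteins and of enzymes that set the local supply of phosphate and pyrophosphate. Whole eyeballs hold far more retina and lens than bone, and bone of the orbit or scales of the skin can adhere to them. In such a bulk sample, fewer osteoblasts, less RNA per osteoblast and a change in other cells that express these genes cannot be told apart.

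Gene counts summed to 7988538 to 9829112 per sample. The targeted gene lrpap1 was at 27.1 ± 3.82 CPM in wild-type and 18.9 ± 2.14 CPM in mutant eyes (SD, n = 6 each). CPM, a count per fixed total of reads, was taken on TMM-scaled library totals. The log2 fold change of lrpap1 was -0.52 (adjusted p = 0.0108 by the quasi-likelihood test of edgeR), under the threshold of 1, and the genotypes overlapped. By qRT-PCR the study found no significant change of this mRNA, and it reported lower Lrpap1 protein. Wild-type sample 3 stood apart, since crystallin genes took 0.0710% of its counts against 5.34% to 9.78% in the other 11 samples. For the tested members, log2 fold changes without this sample are given beside their results.

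The members covered a wide range of levels, which are compared between genes as TPM because this unit divides by the gene's length. sparc was the highest, at 728 ± 198 TPM in wild-type eyes (SD, n = 6). bglap followed at 177 ± 101 TPM, computed with a listed length of only 372 bases, and spp1 at 54.1 ± 51.6 TPM. phex was at 10.5 ± 4.25 TPM. The next neighbours were not separated beyond their spread, with runx2b at 4.38 ± 2.02, entpd5a at 3.95 ± 2.93 and ifitm5 at 3.29 ± 2.79 TPM (SD, n = 6). runx2a, panx3 and sp7 came last, at 0.637 ± 0.369, 0.598 ± 0.567 and 0.345 ± 0.221 TPM, and their order was not separated either. sparc was above bglap in all 12 samples, bglap above spp1 in 11 and spp1 above phex in 9. The defining osteoblast factor sp7 had only 0 to 21 counts per sample.

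Among the transcription factors, runx2b fell in the mutant eyes. Runx2, present as the copies runx2a and runx2b in zebrafish, is the factor that commits mesenchymal cells to the osteoblast lineage. runx2b (chromosome 20, 43991810 to 44091325, reverse strand) had a lowest, median and highest value of 5.41, 15.8 and 23.7 CPM in wild-type eyes. In mutant eyes these values were 2.20, 5.69 and 9.32 CPM. Of the wild-type samples 5 lay above every mutant, and only wild-type sample 2 fell within the mutant range. Means were 16.0 ± 6.57 and 5.87 ± 2.35 CPM (SD, n = 6 each), a log2 fold change of -1.44 (standard error, SE, of 0.34, with adjusted p = 0.0153 by the quasi-likelihood test of edgeR over all 18984 genes tested). By an exact two-sided permutation of log2(CPM + 1) between genotypes p was 0.00866. Without wild-type sample 3, which had the second-highest level, the log2 fold change was -1.32 (edgeR adjusted p = 0.0297).

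The other copy, runx2a (chromosome 17, 5351922 to 5516693, forward strand), had only 2 to 11 counts per wild-type and 2 to 7 per mutant sample. It was left out by the filter on low counts, and a fit without that filter gave a log2 fold change of -0.01 (SE 0.46). Its span overlaps supt3h on the opposite strand, and whether the counting used strand is not given in the sources used here. sp7 (chromosome 6, 58622831 to 58674160, forward strand), the factor that acts after Runx2, was also left out. It had 2 to 21 counts in wild-type samples and 0 to 12 in mutants, with no count in mutant samples 4 and 6. The unfiltered fit gave a log2 fold change of -0.93 (SE 0.71, edgeR adjusted p = 0.45), and an exact permutation test gave p = 0.136.

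Of the matrix genes, bglap fell most. It encodes osteocalcin, a small protein whose vitamin K-dependent Gla residues bind bone mineral, and is a product of mature osteoblasts. bglap (chromosome 3, 1405504 to 1408487, reverse strand) had a lowest, median and highest value of 4.36, 44.8 and 54.3 CPM in wild-type eyes. In mutant eyes the values were 2.58, 8.83 and 15.4 CPM. Again 5 of the wild-type samples were above every mutant, and the exception was wild-type sample 3, with 39 counts. Means were 36.8 ± 20.2 and 8.80 ± 4.21 CPM (SD, n = 6 each), a log2 fold change of -2.05 (SE 0.49, edgeR adjusted p = 0.0163), or 4.16-fold lower in the mutants. The exact two-sided permutation of log2(CPM + 1) gave p = 0.0238. Without wild-type sample 3 the log2 fold change was -2.27 (edgeR adjusted p = 0.00126).

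**Figure D1:**
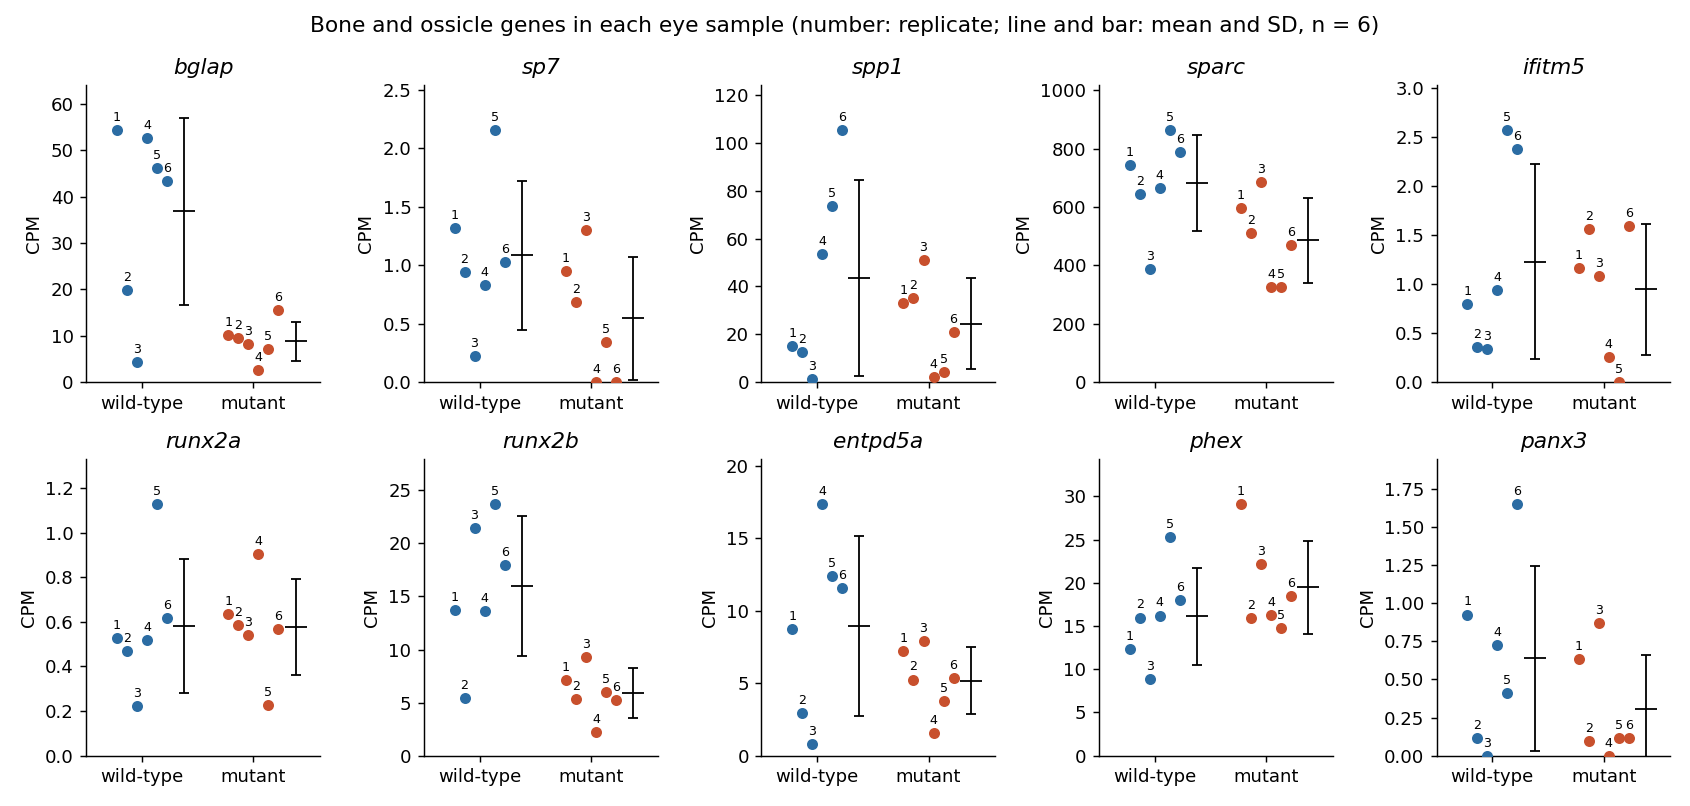
Expression of the 10 genes in each sample, as CPM on a linear axis from 0, with the replicate number above each point and the mean and SD (n = 6) beside each genotype. For bglap and runx2b 5 of the 6 wild-type samples lie above all mutants, while the other genes overlap broadly and wild-type sample 3 and mutant sample 4 are low in most panels.

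The neighbour of bglap on the chromosome, mgp, encodes matrix Gla protein, a related Gla protein that inhibits calcification. It lies on the same strand with 6382 bases between the genes. mgp was at 8.98 ± 2.23 CPM in wild-type and 9.91 ± 1.49 CPM in mutant eyes (SD, n = 6 each), a log2 fold change of 0.14 (SE 0.18, edgeR adjusted p = 0.655), and did not pass the test.

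spp1 and sparc did not pass. spp1 encodes osteopontin, an acidic phosphoprotein of bone matrix that macrophages and other cells also secrete. spp1 (chromosome 10, 15120710 to 15128749, reverse strand) was at 1.12, 34.2 and 105 CPM (lowest, median and highest) in wild-type and at 1.94, 27.1 and 50.9 CPM in mutant eyes. Its range within a genotype, 94.4-fold between the highest and lowest wild-type sample and 26.3-fold among mutants, was far wider than the log2 fold change of -0.83 (SE 0.80, edgeR adjusted p = 0.544). sparc encodes osteonectin, a collagen-binding glycoprotein made by osteoblasts and by many fibroblastic and ocular tissues. sparc (chromosome 14, 25938899 to 25956810, reverse strand) was at 387.0, 705 and 863 CPM in wild-type and 324, 490.0 and 687 CPM in mutant eyes. The fitted change was -0.49 on the log2 scale (SE 0.21, edgeR adjusted p = 0.155), with all 6 mutants below the wild-type median. Without wild-type sample 3, the lowest of its genotype in both genes, the log2 fold changes were -1.07 for spp1 and -0.59 for sparc (edgeR adjusted p = 0.358 and 0.0634). The value of spp1 rested in part on wild-type sample 6, without which it was -0.34 (edgeR adjusted p = 0.850).

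Neither gene of mineral supply passed. Their fold changes had opposite signs, and a difference between them was not tested. Entpd5 is an enzyme that hydrolyses extracellular nucleotides and, in zebrafish, is needed for bone to mineralise. entpd5a (chromosome 17, 45030411 to 45041451, reverse strand) was at 0.782, 10.1 and 17.4 CPM in wild-type and 1.55, 5.30 and 7.91 CPM in mutant eyes. All 6 mutants were below the wild-type median, but wild-type samples 2 and 3 were low too, and the log2 fold change of -0.79 (SE 0.53, edgeR adjusted p = 0.363) did not pass. Without wild-type sample 3 it was -1.01 (edgeR adjusted p = 0.132), and without wild-type sample 4 it was -0.49 (edgeR adjusted p = 0.608). Phex is a membrane endopeptidase of osteoblasts and osteocytes, whose loss in humans causes phosphate wasting and soft bone. phex (chromosome 24, 25404358 to 25442342, reverse strand) was the only member with a higher mean in mutants, 19.5 ± 5.41 against 16.1 ± 5.60 CPM (SD, n = 6 each). Its log2 fold change of 0.27 (SE 0.23, edgeR adjusted p = 0.484) did not pass. This value was 0.16 without wild-type sample 3, 0.14 without mutant sample 1 and 0.47 without wild-type sample 5 (edgeR adjusted p = 0.681, 0.764 and 0.166).

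The membrane genes ifitm5 and panx3 were scarce. ifitm5 encodes a small membrane protein of osteoblasts that is mutated in a human form of brittle bone disease, and panx3 a pannexin channel of osteoblasts and chondrocytes. ifitm5 (chromosome 25, 7504314 to 7506547, forward strand) had 3 to 25 counts in wild-type and 0 to 16 in mutant samples. Its log2 fold change was -0.37 (SE 0.65, edgeR adjusted p = 0.756), and its span overlaps that of cat, the catalase gene, so reads there could have been counted for either. Single libraries set the size of this value, which was -0.55 without wild-type sample 3. It was -0.0027 without wild-type sample 5, -0.06 without wild-type sample 6, and -0.17 and -0.10 without mutant samples 4 and 5 (edgeR adjusted p of 0.651 to 0.998 in these 5 fits). panx3 (chromosome 10, 30999653 to 31016611, reverse strand) had 0 to 16 counts in wild-type and 0 to 8 in mutant samples and was left out by the filter. The unfiltered fit put it 2.01-fold lower in mutants (edgeR adjusted p = 0.477).

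**Figure D2:**
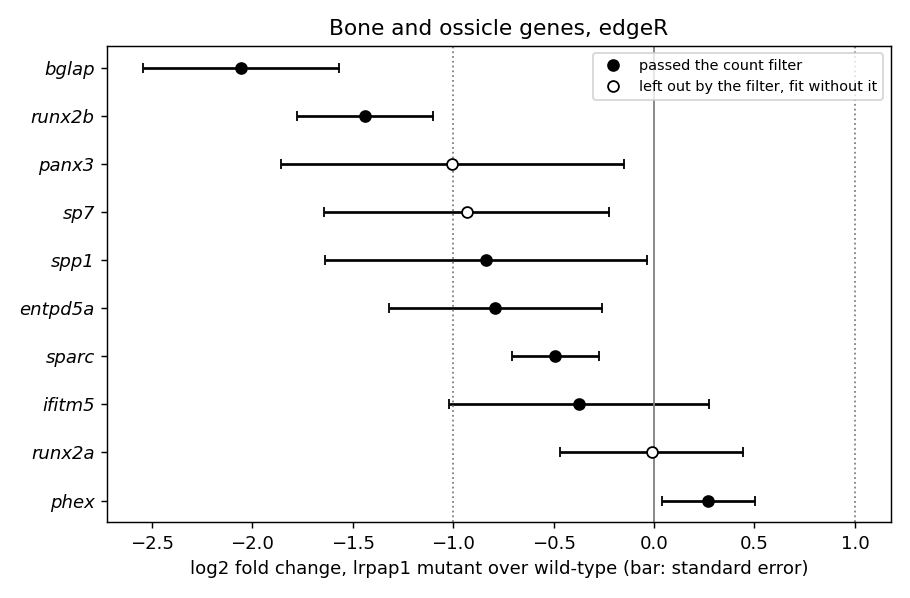
The log2 fold change of each gene, lrpap1 mutant over wild-type, with its standard error from edgeR. Filled points passed the count filter, open points come from the fit without it, and dotted lines mark the fold change threshold of 1 that bglap and runx2b exceeded with an adjusted p under 0.05.

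In all, 2 of the 7 tested members, bglap and runx2b, were called, meaning that the adjusted p was below 0.05 and the level changed by more than 1 on the log2 scale, and both were lower in mutants. Over all genes tested 4.55% were called in either direction, 0.874% lower and 3.68% higher. Of the 10 members 9 had a lower mean CPM in mutants, and the genotypes overlapped in all 10. Among the 7 tested members 6 had a lower mean CPM in mutants. Over all genes tested, 52.6% had a negative log2 fold change and 5.83% had no overlap. The list had been chosen with earlier results of these samples known, so these counts describe it only.

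The samples of 1 genotype differed strongly in these genes. Differences between fish and in the tissue left on the eyeball cannot be told apart here. The within-genotype SD of log2(CPM + 1) was 1.91 for spp1, 1.07 for bglap and 1.02 for entpd5a, higher than in 99.7%, 98.8% and 98.6% of the genes tested, whose median was 0.267. It was 0.638 for runx2b and 0.598 for ifitm5, at percentiles of 94.0 and 92.6. ifitm5 had at most 2.57 CPM, where adding 1 compresses the SD. On log2(TPM + 1) its SD was 0.982, at percentile 98.6, so its place among the members depends on the scale. sparc and phex varied less, with SDs of 0.429 and 0.421 at percentiles of 81.1 and 80.3. All these SDs include wild-type sample 3, whose deviation from its genotype mean was -3.51 for spp1, -2.47 for bglap and -2.11 for entpd5a. SDs without that sample were not computed, so how far they rest on it was not tested. By CPM, wild-type sample 3 had the lowest value of its genotype in 6 of the 7 tested members, the exception being runx2b. For ifitm5 this rested on library scaling, since wild-type samples 2 and 3 both had 3 counts. Mutant sample 4 was lowest in 5 of the 7 and mutant sample 5 in the other 2. At the upper end, wild-type sample 5 and mutant sample 3 were each highest in 4 of the 7.

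These differences between samples ran together across most members. After the mean of each genotype was subtracted, entpd5a correlated over the 12 samples with spp1 (Pearson's r = 0.899, permutation p = 0.00015, adjusted over 6 relations 0.0009, Spearman's rho = 0.881, permutation p = 0.00042). Within the genotypes r was 0.915 in wild-type and 0.928 in mutants, and without wild-type sample 3 and mutant sample 4, the samples farthest from the median, it was 0.734. Here and below, the genotype means subtracted for values without those samples still included them. With bglap r was 0.916 (permutation p = 0.00219, adjusted 0.00438, rho = 0.720, permutation p = 0.0199), and 0.722 without those samples. With sparc r was 0.809 (permutation p = 0.00094, adjusted 0.00282, rho = 0.797, permutation p = 0.0016), and 0.517 without them. With ifitm5 and phex r was 0.675 and 0.687 (permutation p = 0.0277 and 0.0286, adjusted 0.0343 for both, rho = 0.678 and 0.748, permutation p = 0.0267 and 0.0105), and 0.577 and 0.429 without them. runx2b parted from the other members most clearly in wild-type sample 3. Its r with entpd5a was 0.379 (permutation p = 0.288, rho = 0.301, permutation p = 0.373), 0.160 within wild-type and 0.936 within mutants. Wild-type sample 3 combined the lowest entpd5a with a high runx2b, and without it and mutant sample 4 r was 0.720. Which cells the runx2b RNA came from was not tested. All values of a sample share its library and depth. entpd5a was taken as the reference after the values had been seen, so these p values describe the relations only.

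The genes whose profile over the fish was most like that of the members were mostly collagens, 7 of the first 10. Likeness was the correlation, over the 12 samples after subtracting genotype means, with the average of the 7 tested members, an average that leans on the most variable ones. The 10 most similar genes outside the list were col10a1a (r = 0.992), col11a2 (0.982), col5a2b (0.979), col10a1b (0.974), defbl1 (0.967), col1a1b (0.957), col1a2 (0.956), col1a1a (0.954), sytl2b (0.952) and kank2 (0.949). Type X collagen is a product of hypertrophic chondrocytes and, in zebrafish, of osteoblasts too, and type I collagen is the main fibre of bone, skin and sclera. col10a1a ranged from 3.13 to 296 CPM in wild-type and from 2.71 to 101 CPM in mutant eyes. Its log2 fold change of -1.59 (SE 0.85, edgeR adjusted p = 0.247) did not pass, nor did that of any other of the 10. That of col10a1a was -1.83 without wild-type sample 3 (edgeR adjusted p = 0.115). Without wild-type sample 3 the ranking shared 8 of the 10 genes.

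**Figure D3:**
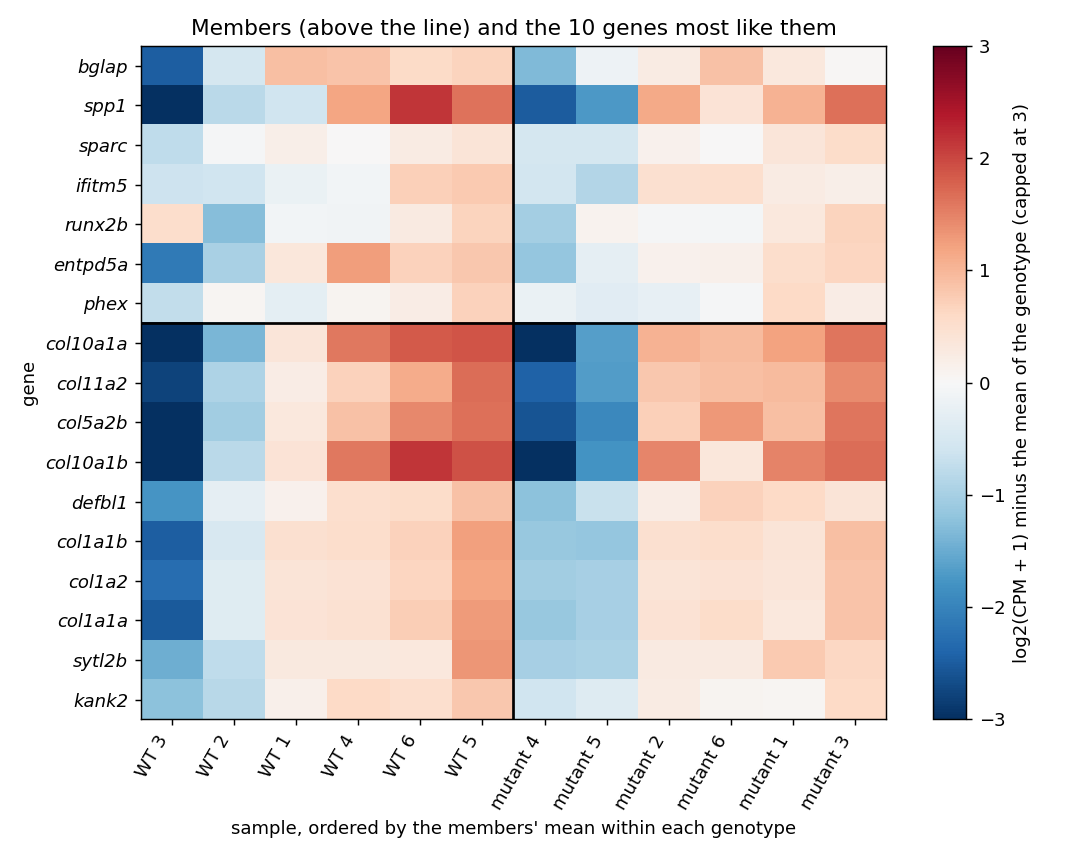
Log2(CPM + 1) of each gene minus the mean of its genotype, with samples ordered by the members' average within each genotype and the 7 tested members above the horizontal line. Wild-type sample 3 and mutant samples 4 and 5 lie below their genotype mean (blue) from bglap down to kank2, except for runx2b in wild-type sample 3 and mutant sample 5.

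Because the level of these genes differed between samples, members were also compared as ratios within a sample. The 12 ratios to entpd5a and sparc were chosen after the values had been seen and are given without a test. The ratio of bglap to entpd5a CPM was 3.03, 4.67 and 6.72 (lowest, median and highest) in wild-type and 1.03, 1.74 and 2.89 in mutant eyes. The genotypes did not overlap in this ratio, and its median was 2.68-fold lower in mutants. Of the other tested genes, including bglap, 0.0948% had a ratio to entpd5a that was lower in every mutant than in every wild-type sample, 0.68% one that was higher, and 0.774% either. Wild-type sample 3, low in most members, had a ratio of 5.57, although only 7 counts of entpd5a lie behind it. spp1 showed no such separation from entpd5a, with medians of 3.70 in wild-type and 4.27 in mutant eyes and overlapping ranges. The ratio of runx2b to entpd5a was 0.784 to 27.4 in wild-type and 0.979 to 1.61 in mutant eyes, with overlap. Set against sparc, bglap did not separate the genotypes. That ratio was 0.01125 to 0.07917 in wild-type and 0.007974 to 0.03297 in mutant eyes, with wild-type sample 3 the lowest of its genotype. The only other ratio without overlap was that of phex to sparc, 0.0165 to 0.0294 in wild-type and 0.0312 to 0.0502 in mutant eyes. A ratio to sparc that was higher in every mutant was found for 8.33% of the genes tested, and 8.47% had no overlap in either direction.

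**Figure D4:**
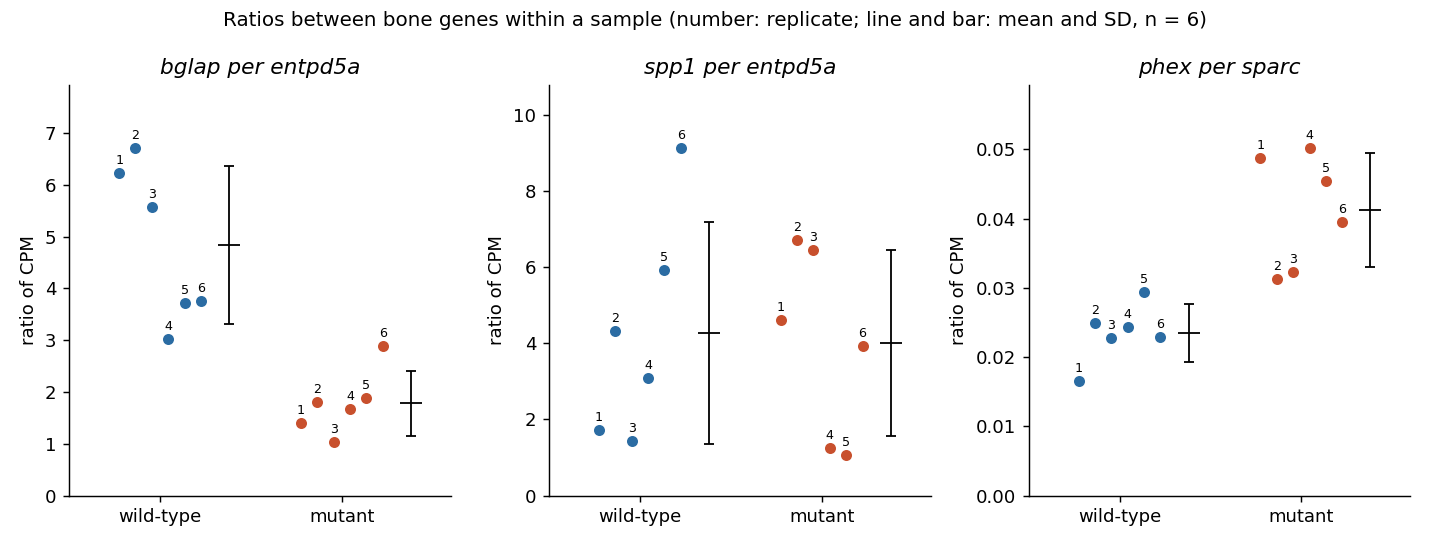
Ratios of CPM between genes within each sample, on linear axes from 0, with the replicate number above each point and the mean and SD (n = 6) beside each genotype. bglap per entpd5a separates the genotypes (lowest wild-type 3.03, highest mutant 2.89), spp1 per entpd5a does not, and phex per sparc is higher in every mutant.

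The wider bone pathway was read from lists chosen by function, with earlier results of these data known. Of the genes tested, 11.2% passed an adjusted p of 0.05 whatever their fold change. Among 17 tested genes of type I collagen matrix and its processing, none was called, although 15 had a negative log2 fold change and the median was -0.34, against -0.02 over all genes tested. A negative median was not particular to this list. Medians of the marker lists of other cells, set out below, ranged from -0.73 (erythrocyte) to 0.87 (surface epithelium). Skeletal muscle was at -0.41 and lens at -0.26. At an adjusted p under 0.05 without a minimum fold change, 2 passed and both were lower, the proteoglycan gene bgna and serpinh1b, which encodes a collagen chaperone of the endoplasmic reticulum. These 2 genes, and the others below that passed without reaching the fold change, were named after their values were seen. bgna was at 20.4 ± 3.21 CPM in wild-type and 11.1 ± 2.61 CPM in mutant eyes without overlap (SD, n = 6 each, edgeR adjusted p = 0.00389). serpinh1b was at 9.49 to 19.5 CPM in wild-type and 5.72 to 10.4 CPM in mutant eyes, overlapping (edgeR adjusted p = 0.00923).

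Of 19 tested osteoblast regulators none was called, 10 had a negative log2 fold change and the median was -0.03. cbfb, which encodes the partner subunit of Runx proteins, passed at any fold change and was higher in mutants. Its level was 11.6 ± 3.58 CPM in wild-type and 18.8 ± 4.24 CPM in mutant eyes (SD, n = 6 each). The log2 fold change was 0.70 (SE 0.20, edgeR adjusted p = 0.0423). The Runx relatives runx1 and runx3, the Sp genes and the other relatives of the members were not called in 16 tested genes, with a median log2 fold change of 0.16. entpd5b, the copy of entpd5a, was at 9.19 ± 2.98 and 7.98 ± 2.30 CPM (SD, n = 6 each, edgeR adjusted p = 0.640).

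Among 18 tested regulators of mineral and phosphate, 2 were called, both higher in mutants, and the median log2 fold change was 0.06. enpp1 encodes the enzyme that makes extracellular pyrophosphate, an inhibitor of mineralisation. It was at 3.04, 5.64 and 8.31 CPM (lowest, median and highest) in wild-type and 9.42, 12.3 and 13.8 CPM in mutant eyes. All 6 mutants were above all wild-type samples, with a log2 fold change of 1.05 (SE 0.22, edgeR adjusted p = 0.00873). Without wild-type sample 1 or 3 its log2 fold change was 0.94 or 0.97, under the threshold of 1, with adjusted p values of 0.0106 and 0.0140 (edgeR). galnt3, whose enzyme glycosylates the phosphate hormone Fgf23, was at 3.15 ± 1.71 and 7.52 ± 2.40 CPM (SD, n = 6 each), a log2 fold change of 1.26 (SE 0.35, edgeR adjusted p = 0.0346). Its call was lost without any 1 of wild-type samples 3, 4 and 6 or mutant samples 1, 2 and 3, with adjusted p up to 0.0768. fgf23 itself had only 0 to 7 counts in wild-type and 0 to 4 in mutant samples and was left out by the filter. The phosphate transporter gene slc20a1b also passed at any fold change, rising from 400 ± 46.3 to 548 ± 49.0 CPM without overlap (SD, n = 6 each, edgeR adjusted p = 0.00981). The phosphatase gene alpl, which acts against pyrophosphate, was at 175 ± 14.6 and 182 ± 22.8 CPM (SD, n = 6 each, edgeR adjusted p = 0.750).

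Markers of other cells that the eyeball could hold were set beside these results. None of the 22 cartilage markers was called, and their summed level was 147 to 472 TPM in wild-type and 195 to 439 TPM in mutant eyes. Of 11 osteoclast markers 1 was called, csf1ra, which encodes a receptor that macrophages also carry, with 12.2 ± 6.40 and 29.5 ± 14.4 CPM (SD, n = 6 each, edgeR adjusted p = 0.0433). Its call was lost without any 1 of wild-type samples 1, 2, 3 and 6 or mutant samples 1, 2 and 3, with adjusted p up to 0.101. tcirg1b, a subunit gene of the osteoclast proton pump, passed at any fold change and was higher in every mutant, 15.9 to 30.8 CPM against 10.5 to 13.7 CPM (edgeR adjusted p = 0.00516). The osteoclast sum was 60.2 to 172 TPM in wild-type and 80.2 to 206 TPM in mutant eyes. Of 10 tendon and fibroblast markers and 12 lens markers none was called, though col14a1a of the first list passed at any fold change, higher in mutants. The sums were 50.2 to 107 against 49.1 to 101 TPM for the first list. For the lens list they were 173 to 28870 against 16020 to 20680 TPM, the lowest being wild-type sample 3. Of 11 skeletal muscle markers 1 was called lower, acta1b (edgeR adjusted p = 0.0433, lost in 12 alternatives), with sums of 1015 to 2601 against 1146 to 2525 TPM. Of 6 erythrocyte markers 2 were called lower, hbaa2 and hbaa1 (edgeR adjusted p = 0.00900 and 0.0479, the latter lost in 13 alternatives), with sums of 1240 to 4687 against 1127 to 1820 TPM. Of 13 surface epithelium markers 5 were called higher (among them evpla, krt1-19d, ppl and epcam) and 1 lower (krtt1c19e), with sums of 9467 to 18030 against 10840 to 20720 TPM. At any fold change 6 of them passed as higher and 1 as lower. Wild-type sample 3 also had the lowest wild-type sum of the cartilage, osteoclast, tendon and muscle lists and the highest of the epithelium list. Median sums, wild-type then mutant, were 290.5 and 359 TPM for cartilage, 95.9 and 133 for osteoclast and 66.3 and 84.25 for tendon markers. They were 2186 and 1354 TPM for muscle, 2466 and 1473 for erythrocyte, 14050 and 13170 for epithelium and 19110 and 17730 for lens markers. Differences in sums were not tested. Of 17 osteoclast markers found, acp5b, tnfsf11, dcstamp, ocstamp, mmp13a and siglec15l had too few counts to be tested. The markers tnfrsf11b, snorc, cnmd, hbba1 and hemgn were not found by symbol. No marker found was at 0 in every sample, and the part of these markers in the fall of bglap and runx2b was not tested.

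Over the fish, the average level of the 7 tested members went with the cartilage, osteoclast, and tendon and fibroblast lists, whose order differed between genotypes and was not tested. With genotype means subtracted, Pearson's r and Spearman's rho over the 12 samples were 0.943 and 0.909 with cartilage markers, 0.897 and 0.853 with osteoclast markers, and 0.833 and 0.783 with tendon and fibroblast markers. Within wild-type samples these r values were 0.923, 0.968 and 0.821, and within mutants 0.977, 0.816 and 0.869. Without wild-type sample 3 and mutant sample 4 they were 0.846, 0.867 and 0.708. The genotype means subtracted for these values, and for those without the same samples below, still included both samples. For lens markers wild-type sample 3 pulled that mean down. For skeletal muscle r was 0.547 and rho 0.420, and r fell to 0.147 without those samples, so that it rested on them. The same held for lens markers, with r = 0.605, rho = 0.294 and r = -0.10 without them, and for erythrocyte markers, with r = 0.302, rho = 0.434 and r = 0.0192. For surface epithelium r was 0.268 and rho 0.329, with 0.373 without those samples. These 7 relations are given as a description, since the average is over chosen genes.

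**Figure D5:**
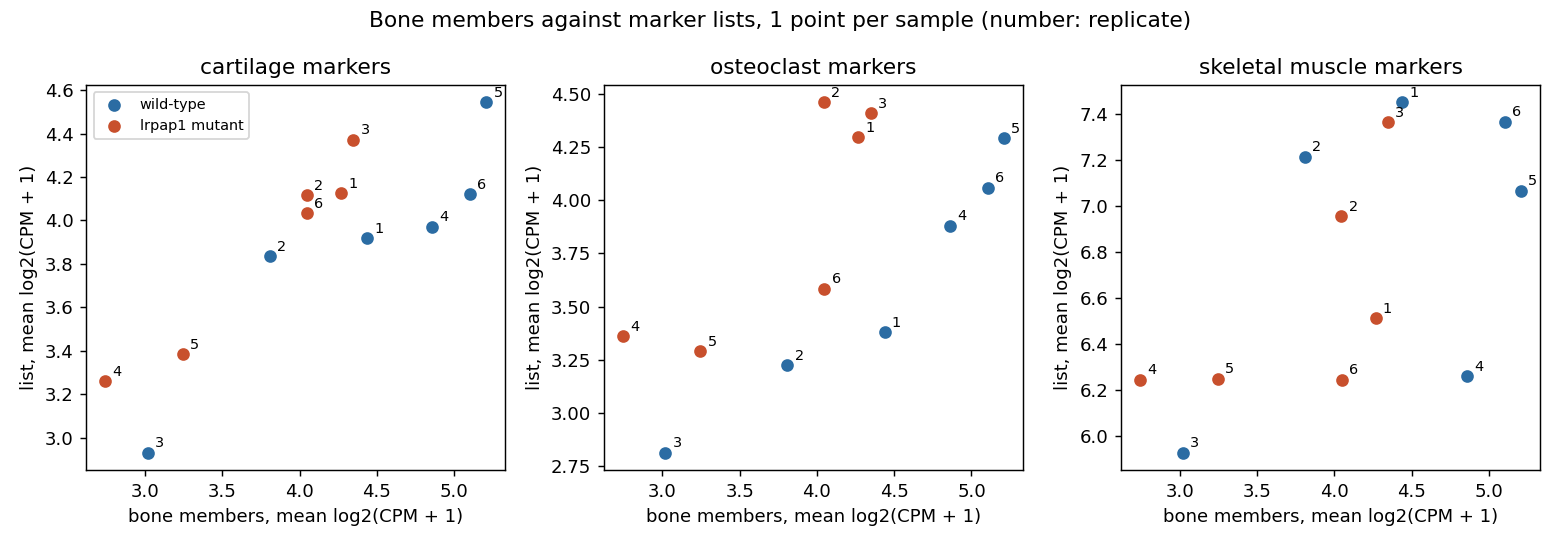
Mean log2(CPM + 1) of the cartilage, osteoclast and skeletal muscle lists against the mean of the 7 tested bone genes, with 1 point per sample and its replicate number. Samples with more bone gene expression have more cartilage expression in both genotypes (r = 0.943 after genotype means are subtracted), while the muscle list scatters (r = 0.547).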

How the data were processed

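The authors aligned reads to GRCz11 with HISAT2 2.1.0, and the deposited table holds the raw count of reads and the TPM of 37055 genes in 12 samples. The counting program and its use of strand are not given in the sources used here. Counts were fitted in R 4.3.3 with edgeR 4.0.16 (TMM, filterByExpr, quasi-likelihood test, a genotype term alone), with Benjamini-Hochberg adjustment over 18984 genes. A call needed adjusted p below 0.05 and a change above 1 on the log2 scale. Standard errors were derived from the F statistic. DESeq2 1.42.0, limma 3.58.1, other scalings and filters, a replicate block and leaving out each of the 12 samples were alternatives. The fits were tested on simulated data.

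The members, lists and tests were chosen with earlier results of these data known. Genes named were the members, lrpap1, called genes of the lists (at most 5 per list) and the 10 genes most like the members; other list genes were named after their values were seen. Each sample was taken to be 1 fish, which the labels do not state, and p values cover the spread between samples. Exact permutation tests used the 924 splits of 6 of 12 samples, and correlations 100000 resamples within genotypes. TPM served for levels between genes. The labels do not pair samples by replicate number, and same-numbered samples were little alike over all genes tested.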

Additional observations from a re-analysis of the deposited data

Results flagged for a closer look

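Of 40 groups of 6 values checked (CPM of each member, their average, marker list averages, total counts and crystallin shares, each within a genotype), 2 held a sample that Dixon's ratio set apart, against 2 expected at 1 in 20. The lens marker average of wild-type sample 3 was 2.50 on the log2(CPM + 1) scale, where the remaining wild-type samples had 8.71 to 9.77 (ratio 0.854). The total count of wild-type sample 1 was 7988538, against 9142860 to 9829112 in the others (ratio 0.627). Without wild-type sample 1 the log2 fold change of bglap was -1.90 and that of runx2b -1.46 (adjusted p = 0.034 and 0.0248 from edgeR). No member had a sample flagged in this way. Neither was the crystallin share of wild-type sample 3 (0.0710%) flagged, so a missing flag does not show that a sample is like the others. The number of flags does not tell whether a given flag arose by chance. How far these libraries bear on the results was not tested beyond leaving them out.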

How the results depend on the processing

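bglap and runx2b kept their direction and their call under DESeq2, limma, both other scalings, removal of crystallin genes, both other filters and each of the 12 fits without 1 sample, where the number of members called stayed at 2. In those 12 fits the log2 fold change was -2.27 to -1.85 for bglap and -1.60 to -1.25 for runx2b. With the replicate block 1 member was called, runx2b (adjusted p = 0.0316), since bglap, with a log2 fold change of -1.86, had an adjusted p of 0.0870 (edgeR). galnt3, csf1ra, acta1b and hbaa1 also lost their calls there (adjusted p = 0.0890, 0.160, 0.132 and 0.165). Over all genes tested, deviations of same-numbered samples correlated at -0.30 to 0.11, and only replicate 1 correlated best with its own number. Whether same-numbered samples shared handling that bears on fewer genes was not tested. No gene named by the rule changed direction under the alternatives run for it, of which sp7, runx2a and panx3 had only DESeq2. The list genes named after their values were seen were not refitted. The number of genes called, 864, was 1525 with DESeq2, 464 with at least 10 counts in every sample, 2124 with no minimum fold change, and 686 to 1160 with each sample left out. The within-genotype SD of ifitm5 was 0.982 on log2(TPM + 1). acta1b and hbaa1 each lost their call in 9 of the 12 fits, with library size alone (adjusted p = 0.0582 and 0.0590) and with at least 10 counts in every sample (0.0553 and 0.0567), and hbaa1 also with limma (0.0616). sp7, runx2a, panx3 and ifitm5 had at most 25 counts in any sample, so their values are less precise than those of the other members.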

Other observations

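Some genes of the lists had too few counts for the main test but an adjusted p under 0.05 in the edgeR fit without the filter, an observation made after the values were seen. scpp7, a relative of spp1 among the secretory calcium-binding phosphoproteins of mineralised tissue, had 2 to 19 counts in wild-type samples and 0 to 1 in mutants, with no count in 5 of them. dkk1b, which encodes a Wnt inhibitor, had 5 to 27 counts in wild-type and 0 to 7 in mutant samples (log2 fold change -2.46, adjusted p = 0.0226). The collagenase gene mmp13a, of the osteoclast list, had 3 to 9 counts in wild-type and 3 to 83 in mutant samples (log2 fold change 2.21, adjusted p = 0.0455). Among muscle markers pvalb2 had 1 to 122 counts in wild-type and 0 to 11 in mutant samples (log2 fold change -3.44, adjusted p = 0.0460).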
